A study of Homo sapiens with 6 samples.

Results

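The 10 genes described here encode enzymes and a transporter that supply cysteine and build, recycle and break down glutathione. They are the methionine cycle enzymes MAT2A and AHCY, the transsulfuration enzymes CBS and CTH, the cystine transporter subunit SLC7A11, the glutathione synthesis genes GCLC, GCLM and GSS, the recycling enzyme GSR and the surface enzyme GGT1. They were taken by gene name from a table of 58735 genes, and all 10 had a row. The list was chosen by pathway with the count differences between the same libraries known, including large ones in CTH and SLC7A11. Differences between the groups are therefore given as descriptions, and no support is drawn from the choice of genes.

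In the methionine cycle, methionine is activated to S-adenosylmethionine, which gives up its methyl group, and the product is cleaved to homocysteine. Transsulfuration joins homocysteine to serine and releases cysteine, which cells otherwise import as its oxidised dimer, cystine. Cysteine is the limiting amino acid of glutathione, the main soluble thiol that cells use against peroxides and electrophiles. Cancer cells often take most of their cysteine from imported cystine. Transcription of several of these genes is known to answer to ATF4, which is made during amino acid shortage and other stress, and to NRF2, which is released by oxidants.

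RNA was sequenced from MDA-MB-231, a widely used line of human breast cancer cells of the triple-negative, mesenchymal kind. Cells of 3 libraries were transfected with the plasmid DNAJC12v to overexpress DNAJC12, a J-domain co-chaperone gene, and cells of the other 3 with empty vector. The parental line is the same in both groups and no other treatment is given in the labels. The labels do not say whether the transfection was transient or selected, whether cells were clonal, or whether replicates were cultured separately, so the spread behind each p-value may be technical only. Libraries held 17967283 to 18887497 counts.

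DNAJC12 had 522, 523 and 492 counts in DNAJC12 replicates 1 to 3 and 1, 0 and 0 counts in empty vector replicates 1 to 3. Of the mesenchymal markers of the line, VIM averaged 921 ± 72.5 CPM with DNAJC12 and 891 ± 66.8 CPM with empty vector, and CD44 571 ± 2.56 and 611 ± 59.4 CPM (SD, n = 3 each). CAV1 averaged 601 ± 182 CPM with DNAJC12 and 320 ± 50.6 CPM with empty vector, and AXL 1899 ± 442 and 1396 ± 76.3 CPM, both without overlap, while ZEB1 averaged 3.93 ± 2.53 and 2.59 ± 1.03 CPM. None of these 5 passed the test, and their sum ran from 3724 to 4369 CPM with DNAJC12 and from 3113 to 3362 CPM with empty vector. None of 5 epithelial markers passed either, with sums of 2297 to 4641 CPM with DNAJC12 and 2844 to 3259 CPM with empty vector. Among them KRT19 averaged 438 ± 168 CPM with DNAJC12 and 740 ± 82.7 CPM with empty vector, without overlap. CPM express a count relative to the scaled total of its library. The receptor genes ESR1 and PGR had at most 3 counts in any library, whereas ERBB2 was read at 61.4 to 117 CPM with DNAJC12 and 95.2 to 121 CPM with empty vector. Of 4 fibroblast markers 2 had counts enough to be tested and neither was called, and their sum ran from 6.86 to 10.9 CPM with DNAJC12 and from 6.81 to 11.5 CPM with empty vector. Among leukocyte markers, PTPRC had at most 2 counts in any library and CD3E had 0, whereas CD14 had 4.86 to 12.6 CPM with DNAJC12 and 6.22 to 8.23 CPM with empty vector and was not called. Of 3 endothelial markers PECAM1 was lower with DNAJC12, at 4.58 ± 0.859 CPM, against 18.3 ± 3.94 CPM with empty vector (SD, n = 3 each; adjusted p = 0.0125 by edgeR). The other two, CDH5 and VWF, had at most 4 counts in any library. Summed endothelial markers ran from 4.02 to 5.81 CPM with DNAJC12 and from 15.6 to 22.8 CPM with empty vector. Their part in the results was not tested.

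The promoter windows of CTH and of the subunits of glutamate-cysteine ligase, GCLC and GCLM, are shown. CTH differed most between the groups, and the subunits of 1 enzyme had log2 fold changes of 0.61 ± 0.33 (GCLC) and 0.076 ± 0.26 (GCLM; SE). Neither subunit passed the test, and the difference between them was not tested. Each window runs from 250 bases before to 50 bases after the RefSeq transcription start in GRCh38.p14, and is printed 5′ to 3′ on the strand of the gene. Capitals mark a match to TGACNNNGC, the core of the antioxidant response element through which NRF2 acts. The CTH window is chr1:70411018-70411317 on the plus strand, the GCLM window chr1:93909381-93909680 on the minus strand and the GCLC window chr6:53545052-53545351 on the minus strand.
CTH: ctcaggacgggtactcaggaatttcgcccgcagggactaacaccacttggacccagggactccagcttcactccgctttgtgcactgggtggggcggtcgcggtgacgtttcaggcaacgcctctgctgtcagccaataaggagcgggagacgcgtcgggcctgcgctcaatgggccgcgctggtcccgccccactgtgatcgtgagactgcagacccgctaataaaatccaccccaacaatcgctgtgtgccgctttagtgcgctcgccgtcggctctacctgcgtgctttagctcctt
GCLM: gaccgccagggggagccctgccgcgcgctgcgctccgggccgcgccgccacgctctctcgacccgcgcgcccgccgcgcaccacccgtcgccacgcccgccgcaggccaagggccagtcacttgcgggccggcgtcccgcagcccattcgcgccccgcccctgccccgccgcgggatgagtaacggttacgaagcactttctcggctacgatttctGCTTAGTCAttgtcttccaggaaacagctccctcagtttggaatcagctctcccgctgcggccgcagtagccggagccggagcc
GCLC: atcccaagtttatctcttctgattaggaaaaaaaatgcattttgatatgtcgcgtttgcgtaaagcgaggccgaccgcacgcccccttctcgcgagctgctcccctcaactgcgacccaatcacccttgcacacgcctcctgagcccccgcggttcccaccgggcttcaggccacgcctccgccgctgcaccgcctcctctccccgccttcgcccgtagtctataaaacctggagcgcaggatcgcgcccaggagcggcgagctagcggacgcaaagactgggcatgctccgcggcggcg

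The GCLM match lay on the reverse strand of the window and began 34 bases before the start. Neither the CTH nor the GCLC window held TGACNNNGC. RefSeq windows were found for 7 of the 10 genes, 12 windows in all since AHCY, CBS and GGT1 have several starts. No window was found for SLC7A11, GSS or GSR, so the motif counts do not cover them. On both strands, TGACNNNGC was present in 1 window each of CBS, GCLM and GGT1, and in 13.3% of all 35116 windows. The core of the C/EBP-ATF response element through which ATF4 acts, TGATGNAA, was in none of the 12 windows and in 3.62% of all windows. The capitals of GCLM overlap no other motif searched apart from the same motif with an A added at its end, which GCLM also held. A match is a string of letters and not a bound site, and elements outside the window were not searched.

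CTH, cystathionine gamma-lyase, showed the largest difference of the 10 genes. It releases cysteine from cystathionine in the last step of transsulfuration and can also make hydrogen sulfide. The gene (ENSG00000116761) lies on the plus strand of chromosome 1, 70411218 to 70439851 in GRCh38. DNAJC12 replicates 1 to 3 had 1452, 948 and 1387 counts, which scale to 72.7, 59.9 and 72.5 CPM. Empty vector replicates 1 to 3 had 180, 135 and 227 counts, or 9.66, 7.51 and 12.1 CPM. All 3 DNAJC12 libraries lay far above all 3 empty vector libraries, and replicate 2 was the lowest in each group. The fitted log2 fold change was 2.81 ± 0.25 (SE). It ranked 13 among 14520 tested genes.

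CTH was also the only one of the 9 tested genes that passed edgeR's quasi-likelihood test after Benjamini-Hochberg adjustment over all genes (adjusted p = 0.00155). In that fit 0.585% of tested genes were called higher and 0.661% lower. CTH kept its call in all 18 alternatives, with log2 fold changes of 2.54 to 2.99 and adjusted p from 5.01e-37 to 0.0306. Among these, library totals taken without DNAJC12 repeated the values of the main fit.

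CBS, cystathionine beta-synthase, makes the cystathionine that CTH cleaves, and it was listed at 0 counts in all 6 libraries. The gene (ENSG00000160200) lies on the minus strand of chromosome 21, 43053191 to 43076943. CBSL, a copy of CBS on the same chromosome at 6444869 to 6468040, was listed at 0 in all 6 libraries as well. Of all stretches of 50 bases in the annotated CBSL transcripts, 91.0% occur in CBS transcripts, and 54.5% of those of CBS occur in CBSL. Reads from shared stretches cannot be assigned to 1 copy, and how such reads were counted is not given in the sources used here. The other CBS stretches were not found in annotated CBSL transcripts, and whether CBS transcripts of this line hold them was not examined. The zeros are therefore not read as absence of CBS transcript, and summing the copies gave 0 again.

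SLC7A11, the light chain of the cystine-glutamate exchanger, was higher in every DNAJC12 library but varied widely within the group. The gene (ENSG00000151012) lies on the minus strand of chromosome 4, 138164097 to 138242349. It had 1607, 314 and 825 counts in DNAJC12 replicates 1 to 3, or 80.5, 19.9 and 43.1 CPM. In empty vector replicates 1 to 3 it had 151, 90 and 244 counts, or 8.10, 5.01 and 13.003 CPM. The groups did not overlap. The highest DNAJC12 library was 4.06 times the lowest, against 2.60 times among empty vector libraries, whereas for CTH these ratios were 1.21 and 1.61. The fitted difference was 5.49-fold, a log2 fold change of 2.46 ± 0.51 (SE) (adjusted p = 0.0557 by edgeR).

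SLC7A11 was called in 8 of 18 alternatives, over which its adjusted p ran from 4.42e-22 to 0.347. The edgeR test called it without DNAJC12 replicate 1 (log2 fold change 1.85, adjusted p = 0.0291) and without DNAJC12 replicate 2 (2.82, adjusted p = 0.000273). The antisense gene SLC7A11-AS1 had 7, 0 and 1 counts with DNAJC12 and 1, 0 and 0 with empty vector.

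**Figure D1:**
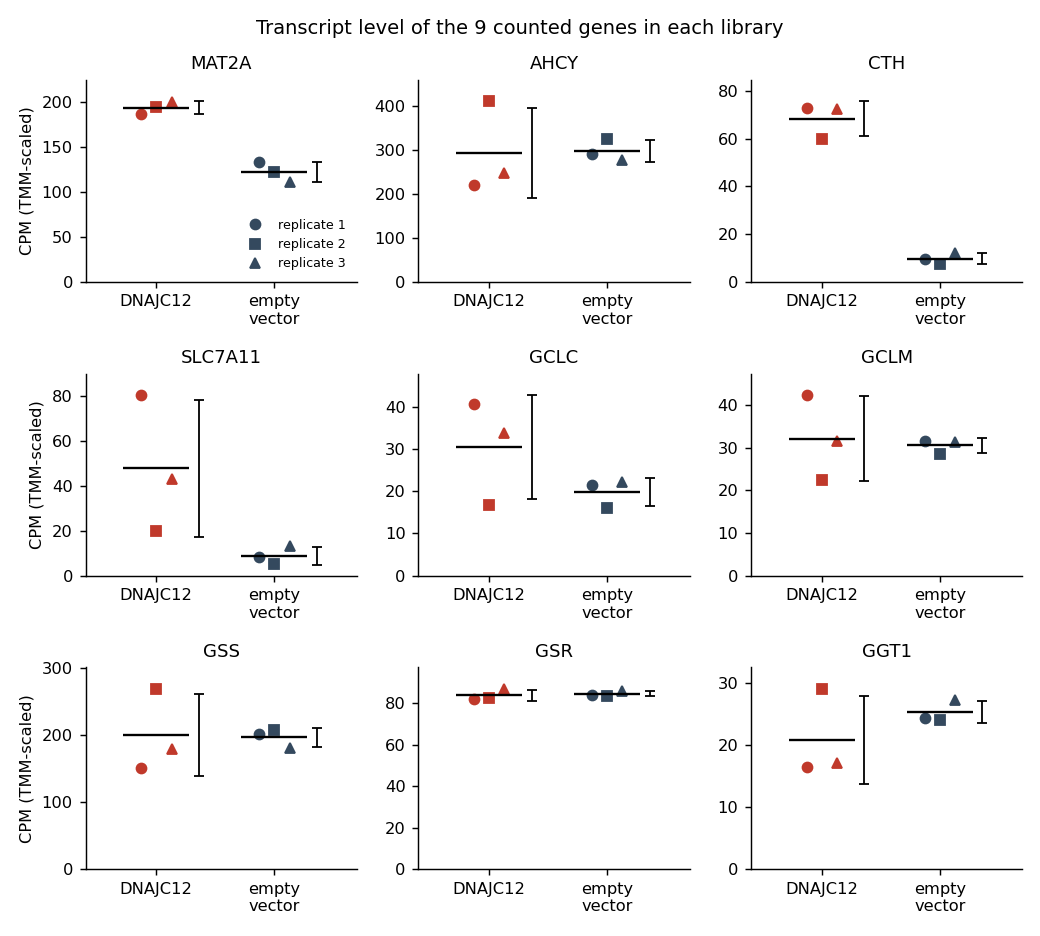
Each panel shows 1 gene in CPM, with 1 point per library, the group mean as a line and the SD beside it (n = 3 each). CTH, SLC7A11 and MAT2A show no overlap between the groups, whereas GSR stays between 82.0 and 86.9 CPM in all 6 libraries.

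The methionine cycle enzymes had unlike fitted fold changes, although neither passed the test and the difference between them was not tested. MAT2A, which makes S-adenosylmethionine in tissues other than liver, had 187, 195 and 201 CPM in DNAJC12 replicates 1 to 3, against 134, 122 and 111 CPM in empty vector replicates 1 to 3. The groups did not overlap and the spread within the DNAJC12 group was small. The fitted log2 fold change was 0.67 ± 0.19 (SE), or 1.59-fold (adjusted p = 0.138 by edgeR). MAT2A (ENSG00000168906) lies on the plus strand of chromosome 2, 85539165 to 85545280, and its end overlaps GGCX on the minus strand. GGCX had 821 to 902 counts with DNAJC12 and 881 to 1034 with empty vector, fewer than the 2083 to 3839 counts of MAT2A in any library. Without strand information, reads of the shared end cannot be told apart.

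AHCY, which cleaves S-adenosylhomocysteine to homocysteine, had 221, 411 and 248 CPM in DNAJC12 replicates 1 to 3 and 290, 326 and 278 CPM in empty vector replicates 1 to 3. The DNAJC12 libraries spanned the whole range of the empty vector libraries, with replicate 2 highest in each group. The log2 fold change was -0.02 ± 0.26 (SE), and it was 0.018 after GC correction. AHCY (ENSG00000101444) lies on the minus strand of chromosome 20, 34280268 to 34311802. In FPKM, which divides by gene length, the ratio of MAT2A to AHCY within a library was 0.735, 0.412 and 0.701 with DNAJC12 and 0.399, 0.326 and 0.347 with empty vector. This ratio was higher in each DNAJC12 library than in any empty vector library, by the smallest margin in DNAJC12 replicate 2. It was chosen after values were seen and was not corrected for GC content.

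Glutamate-cysteine ligase, which joins glutamate to cysteine in the rate-limiting step of glutathione synthesis, has a catalytic subunit, GCLC, and a modifier subunit, GCLM. GCLC had 40.7, 16.8 and 33.7 CPM in DNAJC12 replicates 1 to 3, against 21.4, 16.1 and 22.1 CPM in empty vector replicates 1 to 3. Replicates 1 and 3 of the DNAJC12 group lay above every empty vector library, and replicate 2 fell among them. Its log2 fold change was 0.61 ± 0.33 (SE) (adjusted p = 0.451 by edgeR). GCLC was called without DNAJC12 replicate 2 (0.90, adjusted p = 0.00832 by edgeR), and over its 18 alternatives adjusted p ran from 0.00832 to 0.840. The gene (ENSG00000001084) spans 53497341 to 53616970 on the minus strand of chromosome 6.

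GCLM had 42.3, 22.4 and 31.7 CPM in DNAJC12 replicates 1 to 3 and 31.6, 28.6 and 31.3 CPM in empty vector replicates 1 to 3. The DNAJC12 libraries lay on both sides of the empty vector libraries. The log2 fold change was 0.076 ± 0.26 (SE), and it was -0.14 after GC correction. In FPKM, the ratio of GCLC to GCLM within a library was 0.604, 0.468 and 0.667 with DNAJC12 and 0.425, 0.352 and 0.443 with empty vector. Each DNAJC12 library thus had more GCLC per GCLM than any empty vector library, replicate 2 included. The ratio was chosen after values were seen and was not corrected for GC content. How often ratios of other genes separate the groups was not examined. GCLM (ENSG00000023909) lies on the minus strand of chromosome 1, 93885205 to 93909456.

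GSS, glutathione synthetase, adds glycine in the second step of synthesis, and it had 152, 269 and 180 CPM in DNAJC12 replicates 1 to 3 and 201, 208 and 181 CPM in empty vector replicates 1 to 3. Its groups overlapped, with a log2 fold change of 0.024 ± 0.24 (SE), and of -0.25 without DNAJC12 replicate 2. GSR, which reduces oxidised glutathione with NADPH, was the steadiest of the 10 genes. It had 82.0, 82.5 and 86.9 CPM in DNAJC12 replicates 1 to 3 and 84.0, 83.7 and 85.9 CPM in empty vector replicates 1 to 3. Its highest library was 1.06 times its lowest with DNAJC12 and 1.03 times with empty vector, and the log2 fold change was -0.013 ± 0.18 (SE). GSS (ENSG00000100983) lies on the minus strand of chromosome 20, 34928433 to 34956027, and GSR (ENSG00000104687) on the minus strand of chromosome 8, 30678061 to 30727999.

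GGT1, gamma-glutamyltransferase 1, starts the breakdown of glutathione outside the cell so that its cysteine can be recovered. It had 16.4, 29.1 and 17.1 CPM in DNAJC12 replicates 1 to 3, against 24.4, 24.1 and 27.3 CPM in empty vector replicates 1 to 3. DNAJC12 replicates 1 and 3 lay below every empty vector library and replicate 2 above all of them. The log2 fold change was -0.28 ± 0.27 (SE) (adjusted p = 0.703 by edgeR). It was -0.59 without DNAJC12 replicate 2, where the gene was called lower (adjusted p = 0.0386 by edgeR), and over its 19 alternatives adjusted p ran from 0.0386 to 0.956. GGT1 (ENSG00000100031) lies on the plus strand of chromosome 22, 24583750 to 24629005, and overlaps SNRPD3 on the same strand, which had 1201 to 1834 counts with DNAJC12 and 1588 to 1840 with empty vector. Its value is uncertain for that reason, and because near-identical copies exist, although GGT2, GGT3P and GGT4P together gave at most 11 counts in a library.

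Over all 10 genes, CBS had no counts and 9 were tested. CTH rose, none fell and 8 did not pass. Fold changes were above 0 in 6 of the 9, against 54.9% of all tested genes, and their median was 0.076 on the log2 scale, against 0.049 over all tested genes. In CTH, SLC7A11 and MAT2A every DNAJC12 library lay above every empty vector library, and no member lay wholly below. Among all tested genes 9.26% lay wholly above and 10.8% wholly below.

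**Figure D2:**
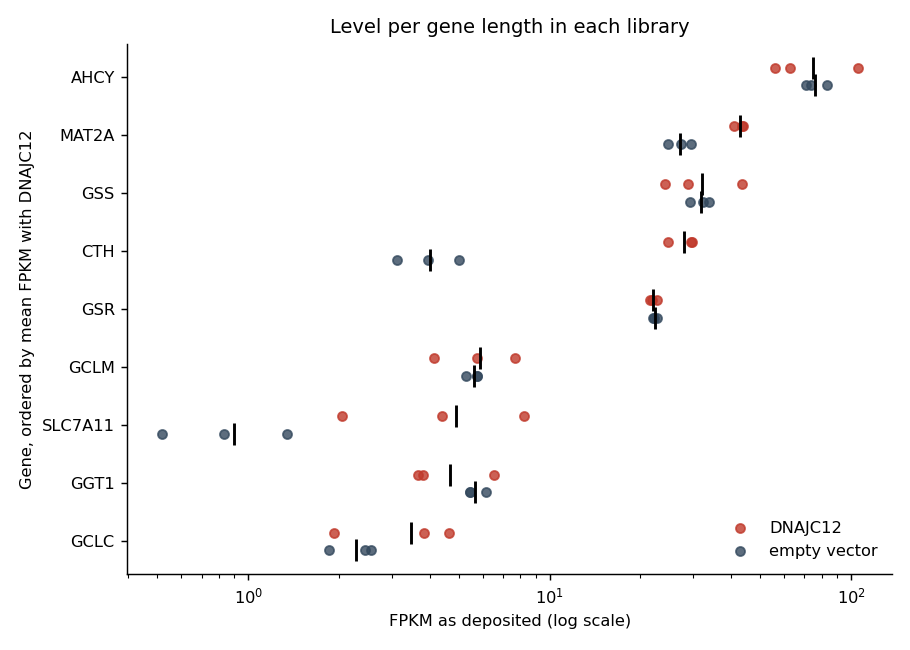
Points give the deposited FPKM of each library on a log axis, with DNAJC12 above empty vector for each gene and the group mean as a black mark. CTH lies between GSS and GSR with DNAJC12, at a mean of 27.99 FPKM, and between GCLM and GCLC with empty vector, at 4.02 FPKM.

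Per gene length, the order of the levels differed between the groups. With DNAJC12 the mean FPKM ran from AHCY (74.6 ± 26.7) through MAT2A (42.8 ± 1.54), GSS (32.1 ± 10.1), CTH (27.99 ± 2.80) and GSR (22.03 ± 0.638) to GCLM (5.85 ± 1.78), SLC7A11 (4.89 ± 3.11), GGT1 (4.66 ± 1.63) and GCLC (3.47 ± 1.39; SD, n = 3). The ranges of MAT2A and GSS overlapped, as did those of GSS and CTH, and those of each neighbouring pair from GCLM to GCLC. With empty vector the order was AHCY (76.0 ± 6.58), GSS (31.7 ± 2.31), MAT2A (27.1 ± 2.39), GSR (22.4 ± 0.343), GGT1 (5.67 ± 0.402), GCLM (5.59 ± 0.280), CTH (4.02 ± 0.942), GCLC (2.28 ± 0.372) and SLC7A11 (0.897 ± 0.416; SD, n = 3). There the ranges of GSS and MAT2A overlapped, and those of GGT1 and GCLM. CTH was thus at rank 4 with DNAJC12 and at rank 7 with empty vector. Within a library, the FPKM ratio of CTH to MAT2A was 0.723, 0.571 and 0.672 with DNAJC12 and 0.134, 0.114 and 0.203 with empty vector, with no overlap. Like the other ratios, it was chosen after values were seen and was not corrected for GC content.

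The spread within the DNAJC12 group varied with the GC content of the transcripts. DNAJC12 replicate 2 fell short of the mean of replicates 1 and 3 of its group in the genes of low GC content. The gap in log2 CPM was -1.56 in SLC7A11 (35.4% GC), -0.70 in GCLM (37.3%), -0.28 in CTH (43.3%) and -1.14 in GCLC (44.3%). It was near 0 in MAT2A (45.6%) at 0.011 and in GSR (48.2%) at -0.032. It exceeded that mean in the genes of high GC content, by 0.70 in GSS (54.2%), 0.81 in AHCY (56.2%) and 0.79 in GGT1 (61.7%). Among all tested genes the median gap was -1.05 in the lowest and 0.73 in the highest of 5 GC bins. Empty vector replicate 2 showed the same direction, with medians of -0.40 and 0.27. In the bin of 41.3 to 46.2% GC, the median gap of DNAJC12 replicate 2 was -0.67. The gaps of CTH and MAT2A lay above that median and the gap of GCLC below it.

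**Figure D3:**
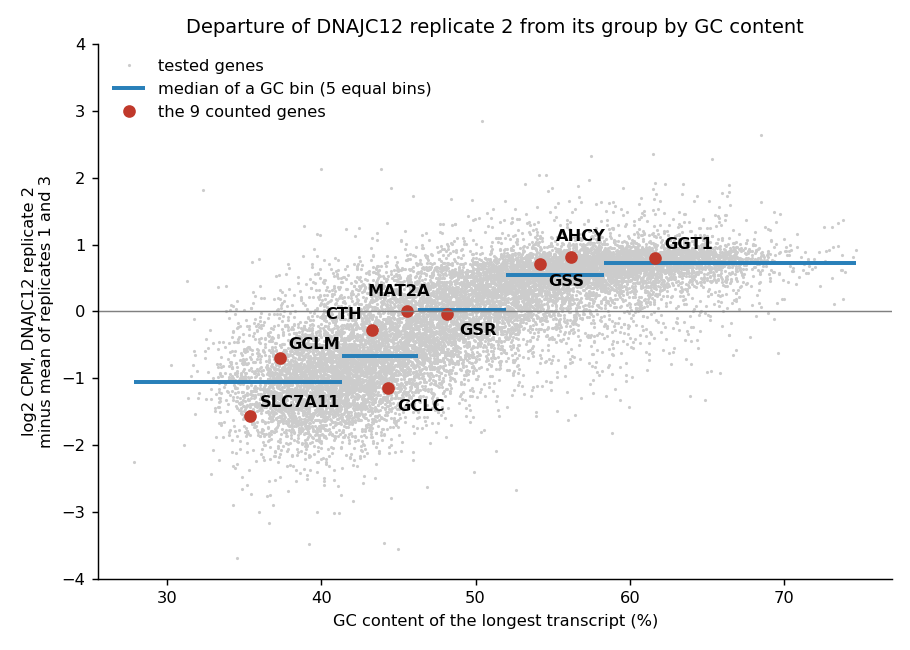
The log2 CPM of DNAJC12 replicate 2 minus the mean of replicates 1 and 3 is plotted against transcript GC content for all tested genes (grey), with the median of each of 5 GC bins (blue) and the 9 counted genes (red). SLC7A11, the member of lowest GC content, lies at -1.56 and GGT1, that of highest, at 0.79.

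With the GC trend of each library removed, the higher genes kept their direction and their errors shrank. CTH had a log2 fold change of 2.76 against 2.81 without correction, and MAT2A of 0.65 ± 0.14 against 0.67 (SE). Those of SLC7A11 (2.11 ± 0.26 against 2.46; SE) and GCLC (0.51 against 0.61) were smaller than without correction. In that fit CTH, SLC7A11 (adjusted p = 0.000924) and MAT2A (0.0124) were called higher by edgeR and GCLC was not (0.0754). That fit called 8.81% of all tested genes higher and 8.45% lower, so the count of 3 stands against a far larger background. Over its 18 alternatives the adjusted p of MAT2A ran from 0.00324 to 0.538. Without DNAJC12 replicate 2, which called 12.1% of genes higher and 10.4% lower, CTH, SLC7A11, MAT2A (0.66, adjusted p = 0.00710) and GCLC were called higher and GGT1 lower.

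Other settings changed which members were called. The DESeq2 Wald test called CTH and SLC7A11, with 1.99% of all tested genes higher and 1.90% lower, and edgeR without a filter called the same genes, with 1.34% and 1.18%. Without DNAJC12 replicate 1, edgeR again called CTH and SLC7A11, with 0.950% of genes higher and 0.728% lower. With each same-numbered set of libraries as a block, MAT2A was called too, with 6.96% and 6.38% of genes, and GCLC as well where GC was also corrected, with 10.7% and 10.4%. Without both libraries numbered 2, which called 10.3% and 8.41%, the calls were those made without DNAJC12 replicate 2. CTH alone was called in all the rest. These were DESeq2 size factors (0.544% of genes higher and 0.668% lower), a filter of 1 CPM (0.602% and 0.700%), limma on FPKM with a pseudocount of 1 (0.594% and 0.649%) or 0.1 (0.610% and 0.626%), and limma without a filter (0.0293% and 0.0146%). They also included edgeR without DNAJC12 replicate 3 (0.128% and 0.0403%) and without empty vector replicate 1 (0.101% and 0.0671%), 2 (0.141% and 0.134%) or 3 (0.107% and 0.0739%). The last was library totals without DNAJC12, which repeated the main fit (0.585% and 0.661%).

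**Figure D4:**
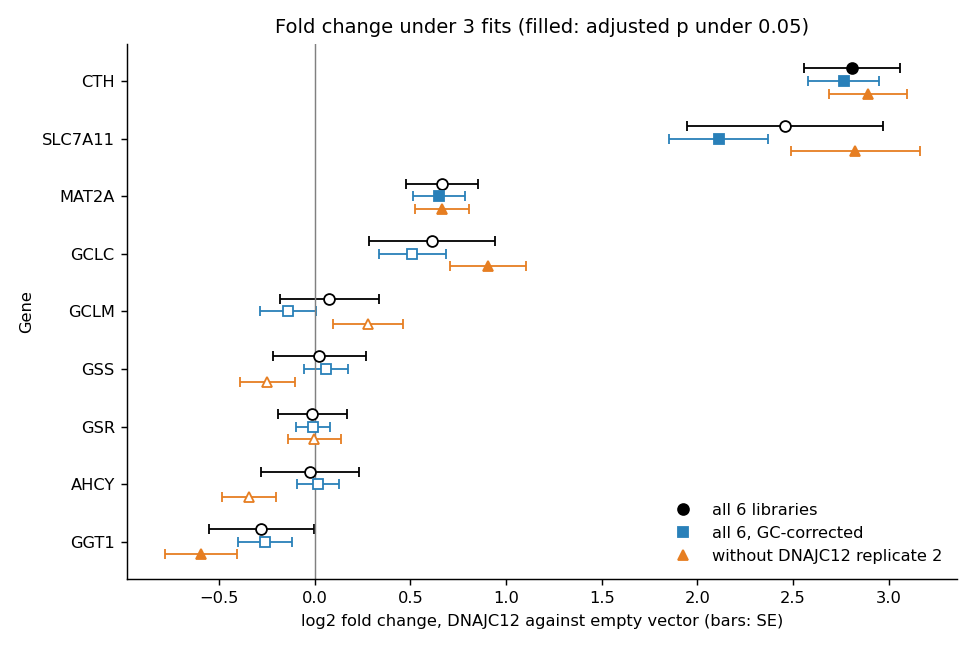
Log2 fold changes with SE are shown for the 9 counted genes from all 6 libraries, after GC correction, and without DNAJC12 replicate 2, with filled symbols where the adjusted p was under 0.05. CTH is filled in all 3 fits (2.81, 2.76 and 2.89), whereas GSR lies at 0 in each.

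Around these genes, 115 others were listed in 8 groups, and 97 were tested. The lists were drawn up with earlier results of these data known, so their counts are descriptions and lend no support. Of these 5 rose, 1 fell and 91 did not pass, with a median log2 fold change of 0.16. Over all tested genes 0.585% were called higher and 0.661% lower, with a median of 0.049. In cystine, cysteine and glutamate transport, 4 of 9 tested genes rose and none fell, with a median of 1.303, the value of SLC7A5. The list is wider than its name, as it holds carriers such as SLC1A5 and SLC7A5. SLC3A2, the heavy chain that carries SLC7A11 to the membrane, had 649, 1134 and 806 CPM with DNAJC12, against 263, 362 and 330 CPM with empty vector, a log2 fold change of 1.44. The serine, alanine and cysteine exchanger SLC1A4 rose by 2.67, the glutamine carrier SLC1A5 by 1.49 and SLC7A5, which also pairs with SLC3A2, by 1.303. SLC1A1, a glutamate and cysteine importer of the list, was at -1.41 (adjusted p = 0.0636 by edgeR), with no overlap between the groups. The ratio of SLC7A11 to SLC3A2 in FPKM was 0.0665, 0.00940 and 0.0287 with DNAJC12 and 0.0165, 0.00743 and 0.0211 with empty vector. It varied within both groups, and the groups overlapped. FPKM were not corrected for GC content, and within the DNAJC12 group replicate 2 was lowest in SLC7A11 and highest in SLC3A2. The part of the GC trend in this ratio was not tested.

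Among 12 tested genes of glutathione degradation and transport, 1 rose and none fell. It was CHAC1, which cleaves glutathione inside the cell, at 83.4, 138 and 98.4 CPM with DNAJC12 and 26.1, 26.3 and 27.7 CPM with empty vector, a log2 fold change of 1.996 (adjusted p = 0.00604 by edgeR). The dipeptidase CNDP2 and the mitochondrial glutathione carrier SLC25A39, the most abundant of the list, had log2 fold changes of 0.66 and 0.025 and did not pass. SLC25A39 was at -0.29 without DNAJC12 replicate 2, and CNDP2 was called in 3 of 18 alternatives (adjusted p 0.00124 to 0.582). In cysteine, taurine and sulfide catabolism, 1 of 12 fell and none rose. It was SQOR, the mitochondrial enzyme that oxidises hydrogen sulfide, at 24.4, 32.6 and 28.993 CPM with DNAJC12 and 68.8, 63.2 and 59.6 CPM with empty vector, a log2 fold change of -1.15. The transaminases GOT1 and GOT2 had log2 fold changes of 0.73 and -0.21 and did not pass, although GOT1 was called after GC correction (0.77, adjusted p = 0.00185 by edgeR), with a range of 0.00135 to 0.513 over 18 alternatives. Without DNAJC12 replicate 3 or any 1 empty vector library, SLC3A2, SLC1A5, SLC7A5 and SQOR were not called (lowest adjusted p 0.106, 0.123, 0.141 and 0.153 by edgeR), nor was CHAC1 without empty vector replicate 1 (0.0745) or 3 (0.0555). SLC7A5 was also not called by limma on FPKM with a pseudocount of 1 (adjusted p = 0.0627) or 0.1 (0.0657), and was called in 11 of 18 alternatives, over which adjusted p ran from 7.21e-09 to 0.234. SLC1A4 was called in 17 of 18, all but limma without a filter (0.0590).

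**Figure D5:**
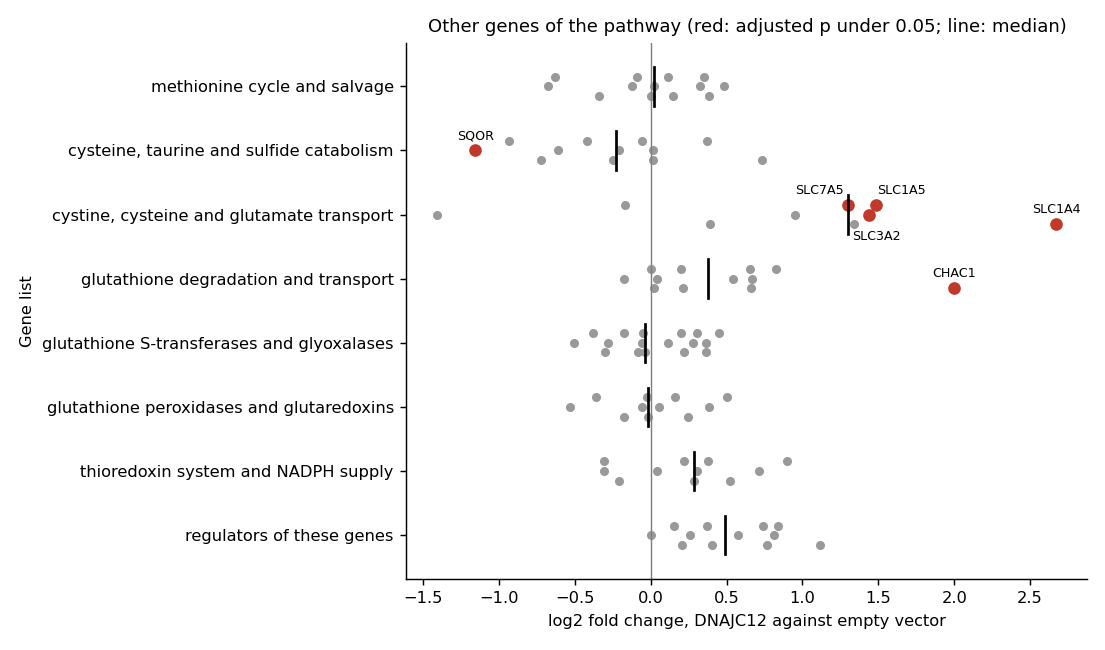
Each point is the log2 fold change of 1 tested gene of a list, red where the adjusted p was under 0.05, and the line is the median of the list. The 4 red transport genes lie between 1.303 and 2.67, CHAC1 lies at 1.996, above the next gene of its list at 0.83, and SQOR at -1.15 is the lowest of its list.

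The genes that use glutathione or supply its reducing power gave no call in the main fit. That fit called 0.585% of all tested genes higher and 0.661% lower, so the lack of a call says little about these lists. None of 17 glutathione S-transferases and glyoxalases passed, with a median log2 fold change of -0.035 and a range from -0.51 to 0.45. None of 11 glutathione peroxidases and glutaredoxins passed either, with a median of -0.017, nor any of 11 genes of the thioredoxin system and NADPH supply, with a median of 0.29. The abundant GSTP1 averaged 665 ± 254 CPM with DNAJC12 and 580 ± 30.7 CPM with empty vector, and TXNRD1 876 ± 330 and 708 ± 94.9 CPM (SD, n = 3 each). The peroxidases GPX1 and GPX4 had log2 fold changes of 0.056 and -0.023, GSTO1 0.12 and thioredoxin, TXN, -0.21. TXNRD1 was called without DNAJC12 replicate 2 (0.57, adjusted p = 0.0244 by edgeR), the lowest over 18 alternatives, of which the highest was 0.970. GPX1 and GSTO1 had values below 0 (-0.30 and -0.15), as did GSTP1 (-0.14), without DNAJC12 replicate 2.

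None of 13 tested genes of the methionine cycle and salvage passed, with a median of 0.024. The main fit called 0.585% of all tested genes higher and 0.661% lower. The spermidine and spermine synthases SRM and SMS, the most abundant, had log2 fold changes of 0.15 and -0.12, and -0.19 and 0.013 without DNAJC12 replicate 2. MTAP, which starts the salvage of methionine from methylthioadenosine and was named after its values were seen, was listed at 0 counts in all 6 libraries. MAT1A, the liver form of methionine adenosyltransferase, had 16 counts over the 6 libraries and was not tested.

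None of 12 regulators of these genes passed, although all 12 had fold changes above 0, against 54.9% of all tested genes. Their median was 0.49. In 5 of the 12 every DNAJC12 library lay above every empty vector library, against 9.26% of all tested genes. CEBPB had the largest log2 fold change of the list at 1.11 (adjusted p = 0.0755 by edgeR), and DDIT3 was at 0.81 (0.149), both without overlap. ATF4 had 594, 691 and 685 CPM with DNAJC12 and 375, 403 and 403 CPM with empty vector, with no overlap, and its log2 fold change was 0.74 (adjusted p = 0.0923 by edgeR). NFE2L2, which encodes NRF2, had 87.4, 30.7 and 57.2 CPM with DNAJC12 and 42.1, 23.9 and 32.1 CPM with empty vector, and its groups overlapped. MYC averaged 453 ± 15.8 CPM with DNAJC12 and 303 ± 33.8 CPM with empty vector (SD, n = 3 each) and did not pass (adjusted p = 0.192 by edgeR). After GC correction ATF4 (0.84, adjusted p = 0.00220) and MYC (0.66, adjusted p = 0.00905) were called by edgeR. Over 18 alternatives adjusted p ran from 0.000574 to 0.440 for ATF4 and from 0.00404 to 0.638 for MYC.

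Across the 6 libraries, the genes whose log2 CPM followed CTH most closely, among 10131 genes of at least 5 CPM on average, were NEDD9, MOCOS, ARIH2, INSIG1 and FYN, with Pearson coefficients of 0.998, 0.995, 0.995, 0.995 and 0.995. Their log2 fold changes were 0.61, 1.42, 0.10, 1.85 and 0.40, and a Pearson coefficient takes no account of the size of a difference. MOCOS (adjusted p = 0.00854 by edgeR) and INSIG1 (0.00315) were called higher, and NEDD9, ARIH2 and FYN were not called. Those closest to SLC7A11 were CCDC80, RHBDD1, ZBTB40, CPE and CELF1, with coefficients of 0.996, 0.991, 0.990, 0.989 and 0.989 and log2 fold changes of 0.36 to 0.91. None of these 5 was called. The 6 libraries fall into 2 groups and share the GC trend, and the coefficients include both.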

How the data were processed

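RNA of 6 libraries, 3 per group, was compared. The authors deposited the count of reads per gene and the FPKM per gene. The submitters' processing notes name HISAT2 2.0.5 as aligner and hg19 as build. Identifiers and coordinates of all 58735 genes equal GENCODE 29 on GRCh38, so GRCh38 is given. Which program counted reads, and on which strand, is not given in the sources used here. Each deposited FPKM used a depth of 0.854 to 1.10 times the library total, so groups were compared on counts and FPKM was used for levels between genes.

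Counts were tested with edgeR 4.0.16 (R 4.3.3) by the quasi-likelihood test with TMM scaling, robust dispersions and filterByExpr at a minimum count of 10 and total of 15, with Benjamini-Hochberg adjustment across 14520 genes and a threshold of 0.05. Genes left out held 0.129% of counts. Log2 CPM used a prior count of 2. The SE of an edgeR log2 fold change was its absolute value divided by the square root of the quasi-likelihood F statistic. GC content was that of the longest GENCODE 29 transcript, known for 58676 genes, and GC correction used a loess trend (span 0.3) per library as offset. Alternatives were DESeq2 1.42.0 (Wald test, size factors), other filters, a replicate block, and leaving out libraries. Also used was limma 3.58.1 on log2 FPKM with pseudocounts of 1 and 0.1 and a filter of 0.5 FPKM in 3 libraries. Library totals without DNAJC12 were a further alternative, which gave the values of the main fit. The main edgeR fit was tried on simulated counts that held no GC trend, and the other steps were not tested in this way.

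The members, lists and motifs were chosen with earlier results of these data known, and the ratios after values were seen. Ratios of FPKM were not corrected for GC content. Named were all members, called genes and the 2 most abundant of each list, the 5 genes most like CTH and SLC7A11, and copies or overlapping genes. SLC1A1, NFE2L2, CEBPB, DDIT3, MTAP and MAT1A were added after values were seen. Promoters came from RefSeq (GRCh38.p14). Python 3.11.15 with pandas 2.3.3 computed the tables and matplotlib 3.10.9 drew the plots. A marker gene of the lists is not reported here.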

Additional observations from a re-analysis of the deposited data

How the results depend on the processing

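CTH kept its direction and call in all 18 alternatives, and SLC7A11, MAT2A, GCLC, GSR and GGT1 kept their direction in each of theirs. Under the DESeq2 Wald test 289 genes were higher and 276 lower, and without a filter 366 and 322; under both, 2 members were higher, and of the pathway genes 8 were higher and 2 lower. GC correction gave 1279 higher and 1227 lower genes, 3 higher members, and 20 higher and 8 lower pathway genes. Without both libraries numbered 2, the counts were 1514 and 1240 genes, 4 members higher and 1 lower, and 19 and 8 pathway genes. By limma on FPKM without a filter they were 8 and 4 genes, and 0 pathway genes either way. Leaving out 1 library gave 15 to 1806 higher and 6 to 1560 lower genes, 1 to 4 higher and 0 to 1 lower members, and 1 to 21 higher and 0 to 12 lower pathway genes. With the longer antioxidant motif, 1 member had a match in place of 3. Ordered by median FPKM, 6 of 10 members kept their rank with DNAJC12 and 8 with empty vector. The cause of these changes was not tested.

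With a replicate block, 1011 genes were higher and 926 lower, with 3 higher members, and 18 higher and 5 lower pathway genes. With GC correction and the replicate block the counts were 1547 and 1507 genes, 4 members, and 22 and 10 pathway genes. Deviations of same-numbered libraries correlated at 0.448, 0.585 and 0.0335, and DNAJC12 replicate 3 correlated best with empty vector replicate 1 (0.225), so the numbers were not taken to pair libraries.

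Signs turned only in genes that were called in no fit. After GC correction without and with the replicate block, AHCY had log2 fold changes of 0.018 and 0.013 and GCLM -0.14 in both. GSS was at -0.0062 without a filter, -0.016 with the replicate block, and -0.022, -0.024 and -0.022 by limma (pseudocounts 1 and 0.1, and no filter); SLC25A39 was at -0.0061, -0.027, -0.034, -0.035 and -0.034. Without both libraries numbered 2, GSS was at -0.21, SLC25A39 -0.23, SRM -0.15, GSTP1 -0.11, GSTO1 -0.099 and GPX1 -0.17. Leaving out 1 library gave -0.34 to 0.14 for AHCY, -0.18 to 0.28 for GCLM, -0.25 to 0.18 for GSS, -0.22 to 0.013 for SMS, -0.19 to 0.35 for SRM and -0.29 to 0.21 for SLC25A39. It gave -0.14 to 0.41 for GSTP1, -0.15 to 0.30 for GSTO1, -0.30 to 0.27 for GPX1 and -0.35 to 0.17 for GPX4.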
